A study of Mus musculus with 4 samples.

Results

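The genes described here are 10 genes of iron homeostasis in mouse liver: Hamp, Hamp2, Bmp6, Hfe, Tfr2, Tfrc, Trf, Slc40a1, Fth1 and Ftl1. They were taken by gene name from the non-control probes of a mouse expression array, which gave 16 probes, out of 56605 probes under 37074 gene names on the array. Wild-type C57BL/6 mice, 6 weeks old, were injected intraperitoneally on 5 days per week for 3 weeks. Female mice received aristolochic acid type I (AAI), a nephrotoxic plant compound, at 5 mg/kg/day, and male mice received it at 2 mg/kg/day. The AAI was dissolved in corn oil, and control mice of each sex received corn oil alone. Total liver RNA from 5 mice of a group was mixed in equal amounts and hybridized to 1 array, so there are 4 arrays and 1 per group. No test between groups was possible, the spread between mice was not measured, and the effects of sex and of dose cannot be told apart between the AAI groups.

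Iron leaves cells through ferroportin, the product of Slc40a1, and hepcidin, the peptide hormone that hepatocytes make from Hamp, removes ferroportin from the cell surface and so lowers plasma iron. Hepatocytes raise Hamp through receptors for bone morphogenetic proteins (BMP), which act with hemojuvelin, HFE and transferrin receptor 2 on SMAD transcription factors, and through interleukin 6 and STAT3 in inflammation. BMP6 comes mainly from the sinusoidal endothelium of the liver. Mice carry a second hepcidin gene, Hamp2, next to Hamp. Transferrin carries iron in plasma, transferrin receptor 1 takes it into cells, and ferritin heavy and light chains store it. Ferritin and transferrin receptor 1 are also controlled after transcription by iron regulatory proteins, a step that an mRNA array does not read.

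The sequences of the hepcidin pair are shown because the result below turns on telling Hamp from Hamp2. The Hamp probe (NM_032541) lies at chr7:31727490-31727549 and the Hamp2 probe (NM_183257) at chr7:31707520-31707579, both on the minus strand of build mm9 and 19970 bases apart. Each probe has 60 bases, and both cover the end of the coding sequence, up to and just past the stop codon. Of 56 aligned bases 45 were identical (80.4%), 11 differed, and the longest run shared by the probes had 14 bases. Capitals mark the bases that do not match the other probe. How much RNA of each gene binds to the probe of the other was not tested.
Hamp probe: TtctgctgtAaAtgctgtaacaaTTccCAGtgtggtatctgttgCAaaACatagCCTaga
Hamp2 probe: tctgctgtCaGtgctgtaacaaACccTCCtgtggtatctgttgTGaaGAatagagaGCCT

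The 250 bases before each start site are shown for the same pair, from RefSeq promoter windows of build GRCm38.p6, at chr7:30944030-30944279 for Hamp and chr7:30924182-30924431 for Hamp2, both on the minus strand. Of 247 aligned bases 227 were identical (91.9%) and 20 differed. Capitals mark the motifs searched for on both strands: GGCGCC, the letters of the BMP response element, and TTCNNNGAA, those of a STAT site. The Hamp window held GGCGCC from 109 to 104 bases before the start and TTCTTGGAA from 97 to 89 bases before it. The Hamp2 window held TTCTTGGAA from 94 to 86 bases before the start and no GGCGCC. Of the 32851 promoter windows of the same length, 9.59% held GGCGCC and 7.02% held TTCNNNGAA. Of the 8 genes with a promoter window, Tfrc also held GGCGCC, from 89 to 84 bases before a start, and no other held TTCNNNGAA. Also searched were CACGTG, an E-box, found in Bmp6 (6.02% of all windows), and TGACNNNGC, the core of the antioxidant response element, found in Bmp6 and Hfe (10.2%). These matches are letters in a window and were not tested as binding sites.
Hamp promoter: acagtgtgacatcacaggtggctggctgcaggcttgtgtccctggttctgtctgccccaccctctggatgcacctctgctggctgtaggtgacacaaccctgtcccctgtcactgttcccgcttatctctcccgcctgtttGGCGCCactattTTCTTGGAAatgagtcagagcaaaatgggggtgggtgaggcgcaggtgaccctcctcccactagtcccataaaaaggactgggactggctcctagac
Hamp2 promoter: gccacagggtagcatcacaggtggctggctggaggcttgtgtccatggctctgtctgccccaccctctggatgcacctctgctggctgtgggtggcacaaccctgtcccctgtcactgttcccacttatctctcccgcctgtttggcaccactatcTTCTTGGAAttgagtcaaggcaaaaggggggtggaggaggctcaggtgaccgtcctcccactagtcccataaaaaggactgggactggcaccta

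The signals given below are log2 of the scanner's processed intensity after quantile normalization over the 4 arrays, and a log2 ratio is a difference of such signals for the same probe. The scanner's own error came to 0.20 to 0.22 on the log2 scale for a ratio of any of the 16 probes, and it covers the reading of a spot only. Where a gene had several probes, the SD between their log2 ratios had a median of 0.25 for the female comparison, 0.24 for the male one and 0.23 between the corn oil groups. All 16 probes were well above background on all 4 arrays, and none was saturated or marked as an outlier. A gene with several probes is given by its brightest probe, and it was counted at a 2-fold difference or more. The arrays had 74.7% to 81.5% of their probes well above background.

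The pools also differed in markers of other tissues. The 10 skeletal muscle markers had a log2 summed signal of 9.37 under corn oil and 15.17 under AAI in females, and of 12.08 and 18.24 in males, with 9 and 10 of them at least 2-fold higher. The 10 fat markers had 12.55 and 12.69 in female pools and 14.34 and 16.45 in male pools, with 3 higher in females, 7 higher and 1 lower in males. The 10 hepatocyte markers, albumin among them, had 21.30 to 21.41, and none was called in either sex. With 1 array per group no array could be left out, and the part of other tissues in the values below was not tested.

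Hamp, the gene of the iron hormone, was higher in the AAI pool of each sex by a similar amount. It had a signal of 17.12 under corn oil and 17.90 under AAI in females, and of 17.12 under corn oil and 17.98 under AAI in males. Both AAI pools thus lay above both corn oil pools. The log2 ratio was 0.78 in females (1.71-fold) and 0.86 in males (1.82-fold), each beyond the scanner error of 0.20 and under 2-fold. The processed intensities before normalization went from 140000 under corn oil to 249960 under AAI in females and from 138200 to 252000 in males. Of 28198 genes above background on all arrays, 437 (1.55%) were at least 1.5-fold higher in both sexes, and Hamp was one of them.

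Hamp2, the second hepcidin gene, was lower in AAI-treated females and higher in AAI-treated males. The female signal was 16.67 under corn oil and 14.56 under AAI, a log2 ratio of -2.10 (4.29-fold lower, scanner error 0.20). The male signal was 13.11 under corn oil and 15.03 under AAI, a log2 ratio of 1.92 (3.77-fold higher, scanner error 0.20). The highest of the 4 arrays was corn oil-treated females and the lowest was corn oil-treated males, with both AAI pools between them. The processed intensities before normalization showed the same order, from 103000 to 25218 in females and from 8970 to 32700 in males.

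**Figure D1:**
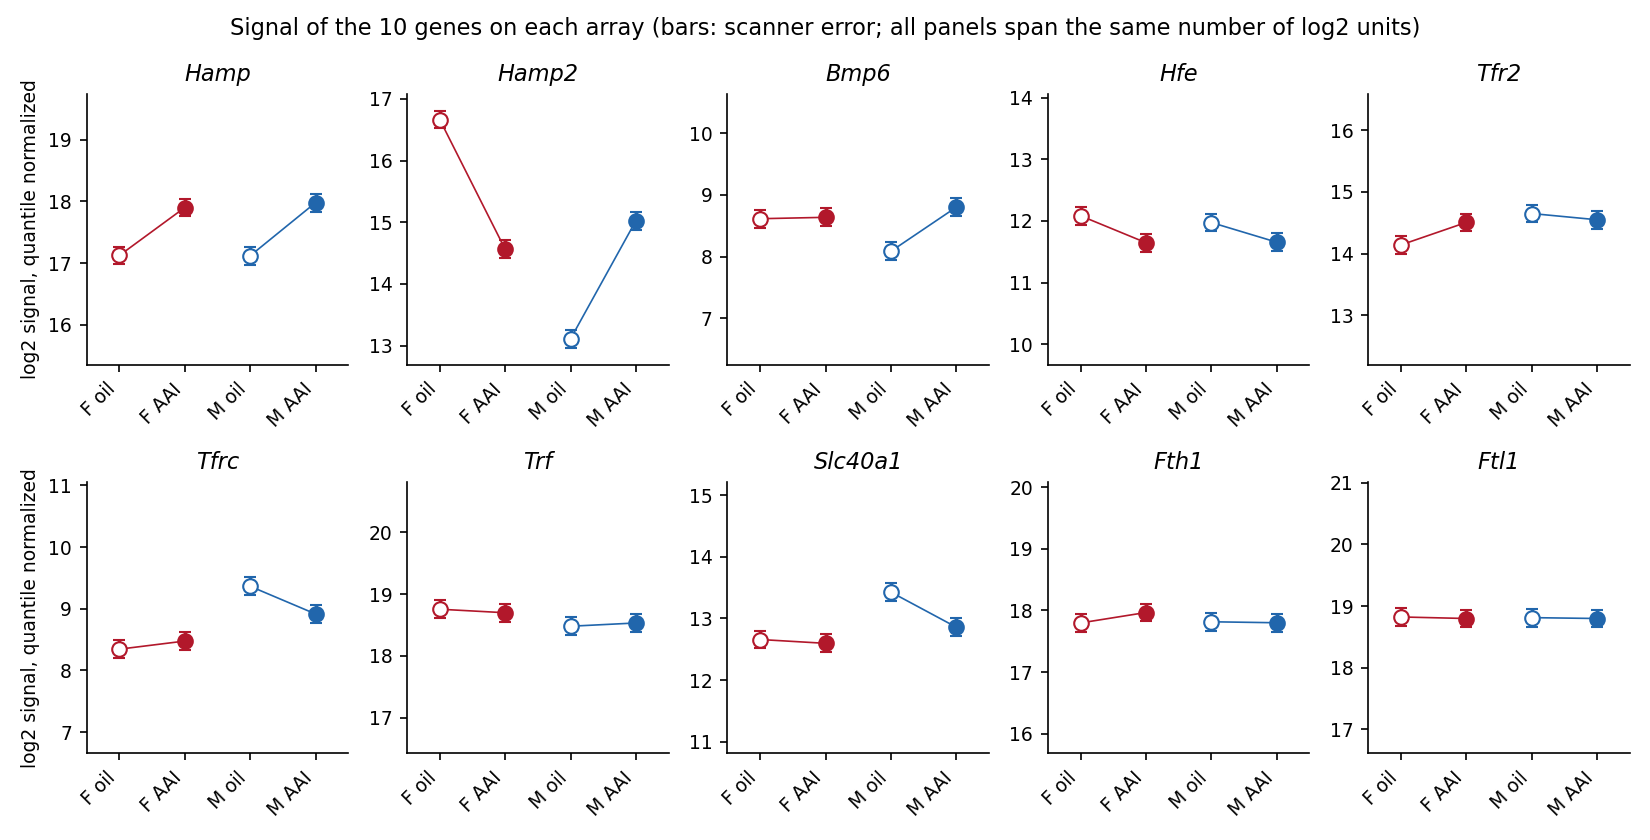
Log2 signal after quantile normalization (vertical axis) of the brightest probe of each of the 10 genes in corn oil-treated (open) and AAI-treated (filled) females (red, F) and males (blue, M), 1 pooled array per point, with bars for the scanner error. All panels span the same number of log2 units; Hamp2 moves from 16.67 to 14.56 in females and from 13.11 to 15.03 in males, and Hamp from 17.12 to 17.90 and from 17.12 to 17.98.

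The size and direction of the Hamp2 differences were uncommon on the array. Among the 28198 genes above background on all arrays, 30 (0.106%) were at least 2-fold lower in AAI-treated females and at least 2-fold higher in AAI-treated males, with Hamp2 among them. The difference between its female and male log2 ratios was -4.02 (scanner error 0.29), which ranked 29 in absolute size. Of 395 genes at least 2-fold higher in corn oil-treated females than in corn oil-treated males, 293 were under 2-fold between the AAI pools, and in 5 of these both the female decrease and the male increase reached 2-fold. These were Btnl2, Cyp2b10, Hamp2, Ly6c1 and Rgs16, of which the other 4 were named after their values were seen. The filters follow the pattern already seen in Hamp2, so its place among the 5 was fixed in advance. The corn oil arrays of the first filter also enter the female and male ratios. The log2 ratios of Cyp2b10, a cytochrome P450 gene induced by xenobiotics, were -1.23 in females and 4.35 in males.

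Counted over the 10 genes, 1 was called in females, Hamp2 lower, against 4.52% of all 31636 genes compared (1.45% higher and 3.07% lower). In males 1 was called, Hamp2 higher, against 8.10% of 30489 genes (3.47% higher and 4.63% lower). The median log2 ratio of the 10 genes was 0.00 in females and -0.01 in males, beside medians of 0.04 and 0.00 over all genes. At 1.5-fold, Hamp higher and Hamp2 lower were counted in females, where 18.0% of all genes were counted (8.10% higher and 9.93% lower). Hamp, Hamp2 and Bmp6, all higher, were counted in males, where 21.0% were (9.85% higher and 11.1% lower). Before normalization Bmp6 was 1.46-fold higher in males, under this threshold. Its male log2 ratio ran from 0.64 to 0.84 over the 7 alternatives given at the end. In females 6 of the 10 ratios, and in males 4, were within the SD between probes of 1 gene.

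**Figure D2:**
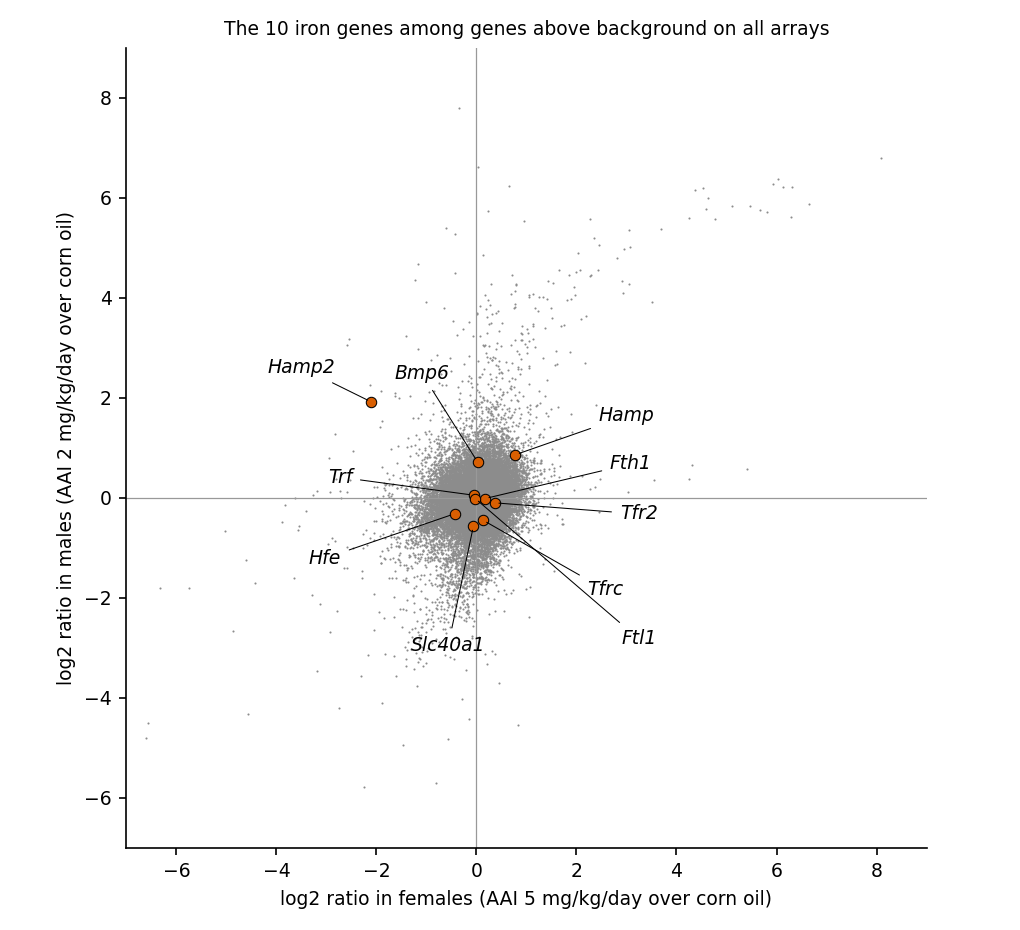
Log2 ratio of AAI over corn oil in females (horizontal axis) against males (vertical axis) for 28198 genes above background on all 4 arrays (grey points), with the 10 iron genes in orange. Hamp2 lies at -2.10 and 1.92, Hamp at 0.78 and 0.86, and the other 8 genes lie within 1 unit of 0 on both axes.

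Among the regulators of hepcidin, Bmp6 was higher in AAI-treated males and differed by less than the scanner error in females. The Bmp6 probe (NM_007556, chr13:38591479-38591538 on mm9) had 8.61 under corn oil and 8.64 under AAI in females, and 8.09 and 8.80 in males. The log2 ratio of 0.02 in females was within the scanner error, and that of 0.72 in males (1.64-fold) was beyond it. The corn oil-treated male pool was the lowest of the 4. The markers of the sinusoidal endothelium, the main source of BMP6, had a log2 summed signal of 15.82 and 15.34 in corn oil- and AAI-treated females and of 15.68 and 15.78 in males. None of these 10 markers reached 2-fold in males and Gpr182, an endothelial receptor, was 2-fold lower or more in females, with a log2 ratio of -1.84.

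Hfe, the HLA-like protein that binds transferrin receptor 1, was lower in both AAI pools. Its brightest probe (NM_010424, chr13:23795710-23795769 on mm9) had 12.08 and 11.65 in corn oil- and AAI-treated females and 11.97 and 11.65 in males. Both AAI pools lay below both corn oil pools. The log2 ratios were -0.44 in females and -0.32 in males, and the second probe gave -0.82 and -0.42. The probes thus had the same sign in both sexes.

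Tfr2, the transferrin receptor of hepatocytes that senses iron-loaded transferrin, was higher in AAI-treated females by under 1.5-fold. Its brightest probe (NM_001289509, chr5:138028646-138028705 on mm9) had 14.14 and 14.51 in corn oil- and AAI-treated females and 14.65 and 14.55 in males. The corn oil-treated female pool was the lowest of the 4. The log2 ratios were 0.37 in females and -0.10 in males, with 0.40 and 0.03 at the second probe. The probes of Tfr2 overlap in position, so they are not separate readings of the transcript.

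Among genes of uptake and transport, Tfrc, Trf and Slc40a1 stayed under 2-fold in both sexes. Tfrc, which encodes transferrin receptor 1, had 8.34 and 8.48 in corn oil- and AAI-treated females and 9.36 and 8.92 in males at its brightest probe (NM_011638, chr16:32632255-32632314 on mm9). At this probe both male pools lay above both female pools. The log2 ratio was 0.13 in females and -0.45 in males. The second probe gave -0.34 and -0.33, so the probes disagreed in sign in females and agreed in males. At the second probe the signal was 6.83 under corn oil and 6.49 under AAI in females and 7.16 and 6.82 in males, so the AAI-treated male pool did not lie above the corn oil-treated female pool.

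Immature red cells carry much transferrin receptor 1, and red cell markers were lower in the AAI-treated male pool. Of 9 erythroid markers, 4 of 8 compared were at least 2-fold lower in males and none was higher, and in females 1 of 7 was higher and none was lower. The log2 summed signal of the list was 18.08 and 17.64 in corn oil- and AAI-treated females and 17.73 and 15.79 in males. Alas2, the red cell enzyme that starts heme synthesis, had log2 ratios of -0.46 for females and -3.23 for males, and the globin gene Hba-a1 had -0.44 and -1.93. Epb4.2, a red cell membrane protein gene, was not well above background on any array. The part of these cells in the Tfrc signal was not tested, and fewer cells of a type cannot be told apart from less RNA per cell.

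Trf, the plasma iron carrier that hepatocytes secrete, differed by less than the scanner error. Its brightest probe (NM_133977, chr9:103112826-103112885 on mm9) had 18.76 and 18.70 in corn oil- and AAI-treated females and 18.48 and 18.53 in males. The log2 ratios of -0.06 and 0.05, and of 0.07 and 0.16 at the second probe, were all within the scanner error. The female pools lay above the male pools by 0.28 under corn oil and 0.17 under AAI.

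Slc40a1, the iron exporter that hepcidin acts on, was lower in AAI-treated males at its brightest probe and within the scanner error in females. That probe (NM_016917, chr1:45965255-45965314 on mm9) had 12.66 and 12.60 in corn oil- and AAI-treated females and 13.43 and 12.86 in males. The corn oil-treated male pool was the highest of the 4. The log2 ratios were -0.06 in females and -0.57 in males (1.48-fold lower). The second probe, annotated to an Ensembl transcript, was much dimmer. It had 6.89 and 6.67 in corn oil- and AAI-treated females and 6.66 and 6.88 in males. Its log2 ratios were -0.22 in females and 0.21 in males, with a scanner error of 0.22 for each. The male difference thus rests on 1 of 2 probes.

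Kupffer cells, the macrophages of the liver, recycle red cell iron and export it through ferroportin, and their markers were lower in both AAI pools. Of 10 markers 8 were at least 2-fold lower in females and 2 in males, and none was higher. The log2 summed signal was 16.49 and 15.39 in corn oil- and AAI-treated females and 16.34 and 15.63 in males. Folr2, Cd5l and Timd4 had log2 ratios of -1.78, -1.77 and -1.55 in females and of -0.46, -1.04 and -1.14 in males. The part of these cells in the Slc40a1 signal, with its ratios of -0.06 in females and -0.57 in males, was not tested.

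**Figure D3:**
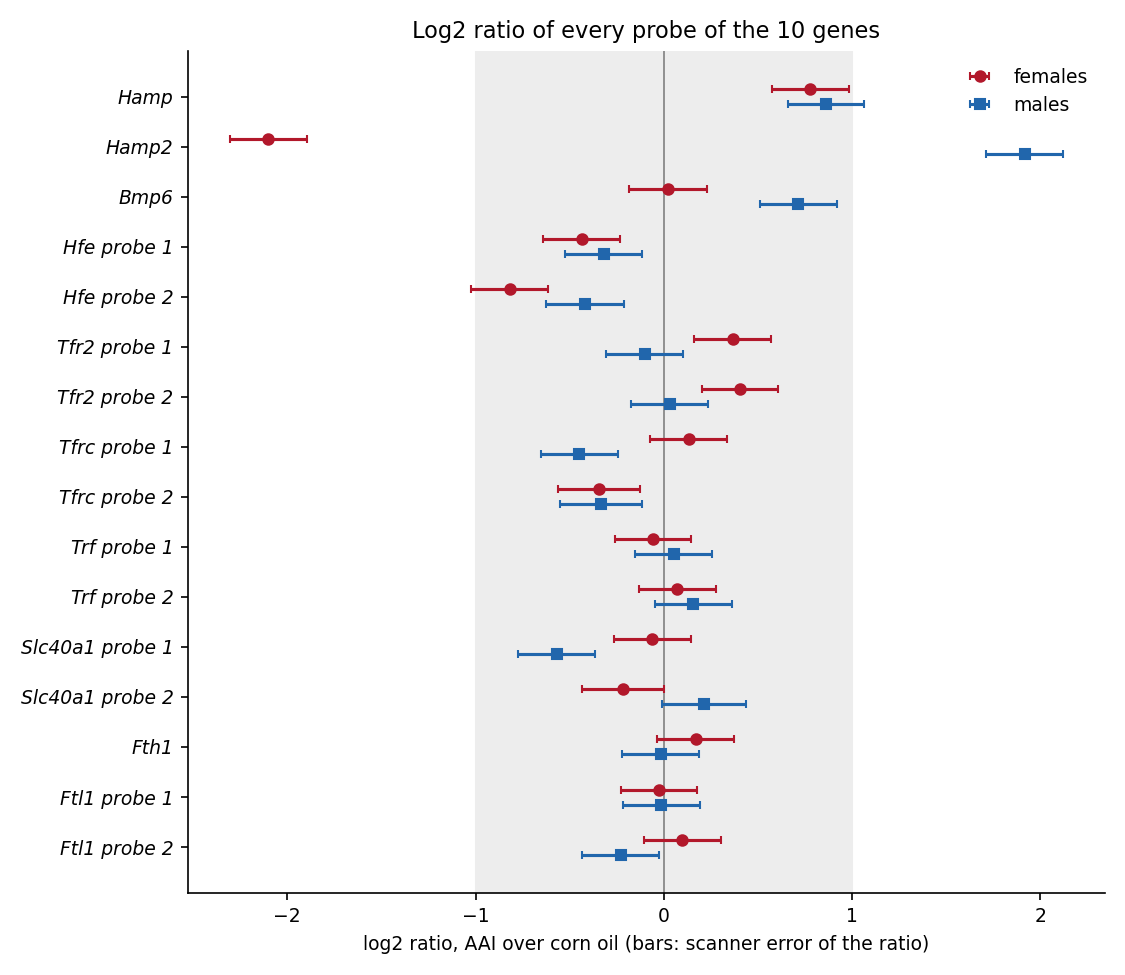
Log2 ratio of AAI over corn oil (horizontal axis) for all 16 probes of the 10 genes in females (red circles) and males (blue squares), with bars for the scanner error of the ratio and a grey band for differences under 2-fold. The Hamp2 probe lies outside the band on opposite sides in the sexes, and the probes of Tfrc in females and of Slc40a1 in males lie on opposite sides of 0.

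After normalization the ferritin genes stayed within the scanner error at their brightest probes. Fth1, the heavy chain that oxidizes iron for storage, had 17.80 and 17.97 in corn oil- and AAI-treated females and 17.82 and 17.80 in males (NM_010239, chr19:10059485-10059544 on mm9). Its log2 ratios of 0.17 and -0.02 were within the scanner error. Ftl1, the light chain, had 18.82 and 18.80 in females and 18.81 and 18.80 in males at its brightest probe (NM_010240, chr7:52713318-52713377 on mm9), a range of 0.03 over the 4 arrays after normalization. Before normalization the intensities of this probe went from 461000 to 434750 in females and from 513080 to 437000 in males. Those log2 ratios were -0.08 and -0.23, and the male one was beyond the scanner error of 0.20. The second Ftl1 probe gave 0.10 in females and -0.23 in males. That probe spans 482 bases of chromosome 7 in the scanner files and is placed on another chromosome in the table of the whole series.

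Between the corn oil pools, females and males differed in 2 of the 10 genes by 2-fold or more, against 5.76% of 30846 genes (1.84% higher and 3.93% lower in females). This comparison shares its arrays with the comparisons of AAI and corn oil above. Hamp2 was higher in females by 3.56 on the log2 scale (11.8-fold, scanner error 0.20), which ranked 16 among 28198 genes. Tfrc was lower in females, with a log2 ratio of -1.02 (2.03-fold) at its brightest probe and -0.32 at the second. Slc40a1 had -0.77 at the brightest probe and 0.22 at the second, Bmp6 had 0.53 and Tfr2 had -0.51. Hamp had 0.00 and Ftl1 had 0.01.

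Between the AAI pools, where the females had received the higher dose, no gene of the 10 reached 2-fold, against 4.31% of 31444 genes. The log2 ratios of females over males ran from -0.46 in Hamp2 (1.38-fold lower) to 0.17 in Trf. In 7 of the 10 genes the ratio was within the SD between probes. Bmp6 had -0.16, Slc40a1 had -0.26 and Tfrc had -0.44.

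**Figure D4:**
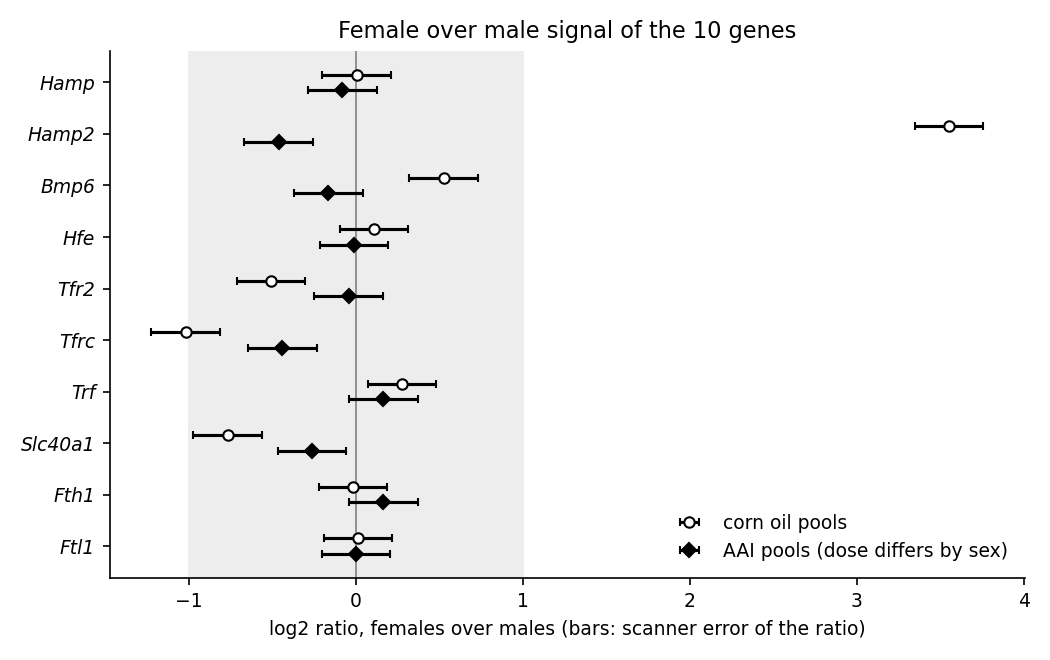
Log2 ratio of females over males (horizontal axis) for the 10 genes in the corn oil pools (open circles) and in the AAI pools (filled diamonds, with 5 mg/kg/day in females and 2 mg/kg/day in males), with bars for the scanner error of the ratio. Hamp2 lies at 3.56 under corn oil and -0.46 under AAI, and Tfrc at -1.02 and -0.44.

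The other iron genes were described with 6 lists of 84 genes, of which 81 had a probe and 79 were above background on an array of each comparison. In females 0 of the 79 were called, against 4.52% of all genes. In males 4 were called (5.06%), against 8.10% of all genes: Lcn2, Id1 and Smad7 higher, and Cd163 lower. The medians were 0.08 in females and -0.03 in males. The log2 ratios of Cd163 and Smad7 in males, -1.0 and 1.04, lay at the threshold, and a second probe of each gave 0.32 and 0.35.

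In the list of BMP-SMAD signaling and hepcidin control, 2 of 25 genes, Id1 and Smad7, were at least 2-fold higher in AAI-treated males and none was lower. Id1, an inhibitor of DNA binding that BMP signals induce, had 10.69 and 10.41 in corn oil- and AAI-treated females and 9.87 and 12.21 in males. The AAI-treated male pool was the highest of the 4, and the log2 ratios were -0.28 and 2.34. Smad7, a feedback inhibitor of SMAD signaling, had 8.92 and 7.97 in females and 8.51 and 9.55 in males, with log2 ratios of -0.95 and 1.04. Its second probe gave -0.09 and 0.35, and the male call was lost under normexp, without the trend correction and with probes averaged. Bambi, a decoy receptor that BMP signals induce, had -0.15 and -0.03. Skeletal muscle and fat markers were also highest in the AAI-treated male pool, and their part in these values was not tested.

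In the same list, 8 of 25 genes were at least 1.5-fold higher in males and none was lower, where 9.85% of all genes were higher. The other 6 were named after their values were seen. Smad6, a second feedback inhibitor, had a log2 ratio of 0.99 in males and 0.21 in females. Hfe2, which encodes the BMP co-receptor hemojuvelin, had 0.90 and 0.43, Id3 had 0.85 and 0.36, and Atoh8, a transcription factor of the pathway, had 0.72 and -0.21. The receptor gene Acvr2b had 0.68 and -0.01 at the brighter of its 2 probes, and Stat3 had 0.62 and 0.07 at its brightest probe. Of its other probes 1 gave 0.63 and 1 gave -0.86 in males. At the brightest probes the corn oil-treated male pool was the lowest in all of these genes but Acvr2b. The log2 ratios of corn oil females over males were 0.97 in Atoh8, 0.73 in Hfe2 and 0.56 in Smad6. Stat3, Id3 and Acvr2b had 0.25, 0.21 and -0.12. The AAI-treated male pool lay above both female pools in Smad6, Id3, Acvr2b and Stat3. It lay below both in Atoh8 and below AAI-treated females in Hfe2.

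In females 1 of the 25 genes was at least 1.5-fold higher, Gdf15 with 0.86, and 3 were lower, Smad7, Il6ra with -0.88 and Acvr2a with -0.62. Of all genes 8.10% were higher and 9.93% lower at this threshold. The second probes of Smad7 and Il6ra, with -0.09 and -0.55, were under 1.5-fold. Acvr2a is given by the brightest of its 3 probes. Gdf15 is a stress-induced member of the TGF-beta family, and Il6ra encodes the receptor for interleukin 6. The receptors Bmpr1a and Acvr1, the signal carriers Smad1, Smad5 and Smad4, and Tmprss6, the protease that cleaves hemojuvelin, stayed under 1.5-fold in both sexes. Bmpr1b was not well above background on any array. The list medians were -0.07 in females and 0.05 in males.

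**Figure D5:**
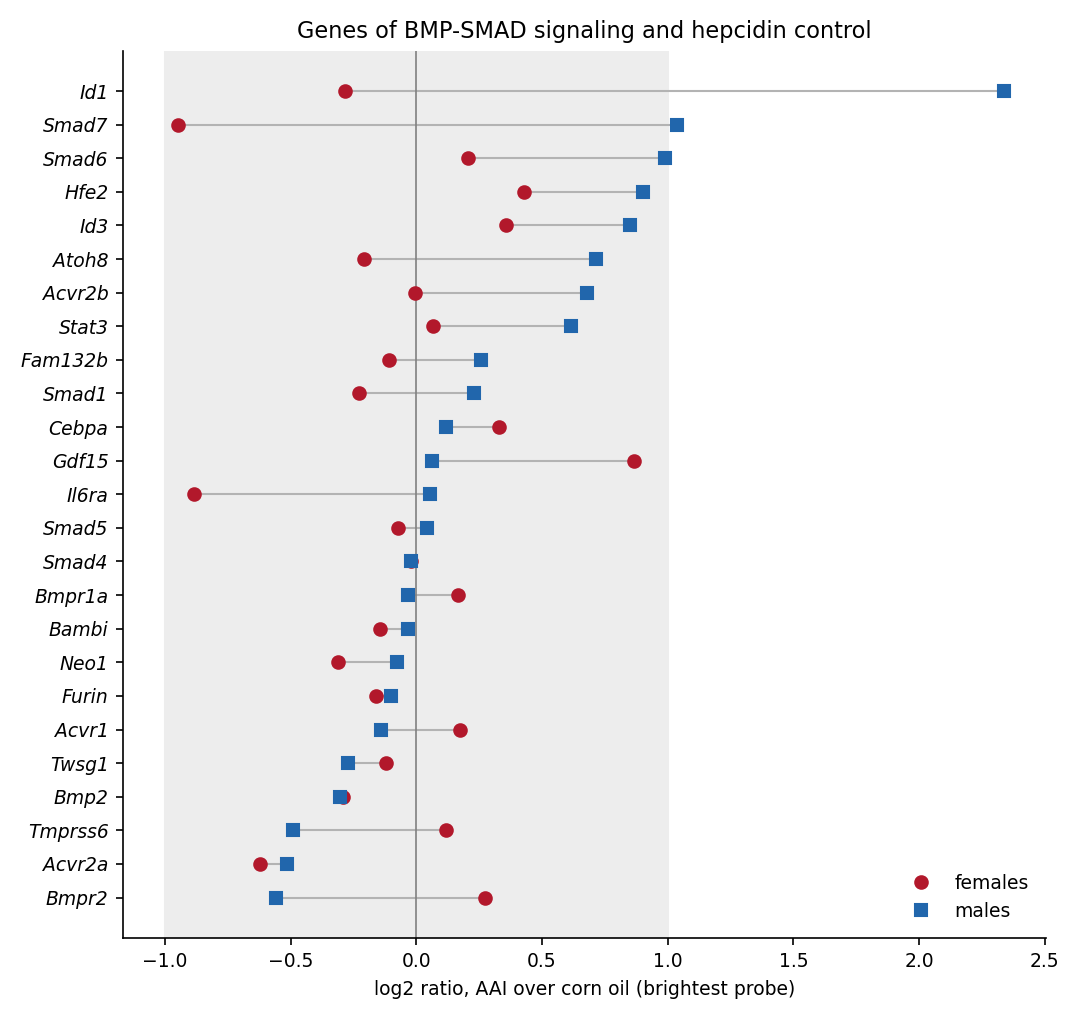
Log2 ratio of AAI over corn oil (horizontal axis) in females (red circles) and males (blue squares) for the 25 genes of BMP-SMAD signaling and hepcidin control that were above background, ordered by the male ratio, with a grey band for differences under 2-fold. Id1 (2.34) and Smad7 (1.04) lie beyond the band in males, and no gene does in females.

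Acute phase genes share the signal of interleukin 6 with Hamp. Saa2 had log2 ratios of -1.18 for females and 2.97 for males, Saa1 had -0.79 and 2.86, and Apcs had 1.21 and 1.85. Of the 10 acute phase genes 1 was at least 2-fold higher and 2 lower in females, and 3 were higher and none lower in males. Saa3 and Fgl1, named after their values were seen, had -1.16 and 0.23, and -0.24 and 0.92. The remaining members had like ratios in both sexes, with 0.33 and 0.45 in Orm1, 0.68 and 0.87 in Orm2, and 0.58 and 0.79 in Fga. Itih3 had 0.28 and 0.36, and Itih4 had -0.002 and -0.07. The difference between the sexes was not tested. The log2 summed signal was 19.25 and 19.32 in corn oil- and AAI-treated females and 19.36 and 20.51 in males. Hamp was higher by a similar ratio in both sexes beside these values, and the part of inflammation in it was not tested.

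In the list of iron transport, Lcn2 was called in males and no gene in females. Lcn2, the siderophore-binding protein lipocalin 2, had 13.01 and 13.18 in corn oil- and AAI-treated females and 10.56 and 14.61 in males, with log2 ratios of 0.16 and 4.05. Its second probe gave 0.16 and 5.27. The ferroxidase gene Cp had 0.69 and -0.02 at its brightest probe. Its other probes ran from 0.01 to 0.91 in females and from -0.30 to 0.27 in males. The import genes Slc11a2 and Slc39a14 stayed under 1.5-fold. The list medians were 0.09 in females and 0.14 in males.

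In the lists of ferritin handling, heme breakdown, heme synthesis and mitochondrial iron-sulfur assembly, Cd163 was the only gene called. The scavenger receptor Cd163, which takes up haptoglobin-bound hemoglobin in macrophages, had -0.87 in females and -1.0 in males. Hmox1, the heme oxygenase, had -0.32 and -0.44. Alas1, which starts heme synthesis in hepatocytes, had -0.90 and -0.87 at its brightest probe, and its other probes had the same sign in both sexes. The iron regulatory proteins encoded by Aco1 and Ireb2 had log2 ratios of 0.25 and 0.06 for females and of -0.37 and -0.66 for males. The medians of the 4 lists ran from 0.07 to 0.23 in females and from -0.27 to -0.02 in males.

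Between the corn oil pools 3 of the 79 genes were called (3.8%), against 5.76% of all genes. Lcn2 was higher in females with 2.45, and Alas1 and Scara5 were lower with -1.93 and -1.16. Scara5, a receptor for ferritin, was not called under normexp or with probes averaged.

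The genes with the pattern most like that of Hamp2 over the 4 arrays were found by the distance between log2 signals, each centred on its mean, among 28197 other genes above background on all arrays. The nearest was 9030619P08Rik, at a distance of 0.84, with log2 ratios of -1.62 in females and 2.10 in males. The second was Gm1043, at 0.93, with -1.90 and 0.62. The third, at 0.94, was an Ensembl transcript that the array also describes as 9030619P08Rik, with -2.12 and 2.25. With 4 arrays a small distance says only that these signals were similar.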

How the data were processed

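The data are the authors' scanner files of 4 single-colour (Cy3) Agilent arrays on 1 slide, quantified with Feature Extraction 10.5.1.1, and their table of normalized intensity. The deposited intensity is linear and background-subtracted, and it is not normalized between arrays. On 3 of the 4 arrays it is also corrected for a multiplicative trend. The array without this correction is that of AAI-treated females, so the correction differs along with AAI in the female comparison. Subtraction without the correction on any array is among the alternatives below. The probes are placed on build mm9. The female control and male AAI files hold 3 significant digits and some date-like gene names, so names were taken from another file. Groups were taken from the sample titles.

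Control spots, outlier spots (70 to 234 per array) and spots whose processed signal equals the background used within 1% although the subtracted signal was over 2 times higher (0 to 92) were left out, repeated spots were averaged on the log2 scale, and 56393 probes with a value on every array were quantile normalized, the method the study names. The brightest probe stood for each of 36974 genes. A call needed an absolute log2 ratio of at least 1 and a probe well above background on at least 1 array; where it was not on the other, a lower bound was used. There are no counts, and precision is limited by 1 array per group. The steps were tested on simulated arrays. The 10 genes, the lists and the settings were chosen with earlier results of these data known.

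Named genes are the 10 genes, other iron genes called in either sex, at most 3 genes per marker list with the largest ratios and its markers not above background; others are said to have been chosen after their values were seen, or stand as examples for their list. Alternatives were 75th percentile scaling, normexp (offset 50, limma 3.58.1 in R 4.3.3), subtraction without the trend correction, the authors' normalized intensity, averaged probes, no filter on dim probes, replaced spots kept, and thresholds of 1.5-fold and 3-fold. Python 3.11.15, numpy 2.4.6, pandas 2.3.3 and Biopython 1.88 were used. Slc40a1 and Trf had no promoter window; 8 of the 10 genes had 12. Ftl2, Flvcr1 and Flvcr2 were not analysed here. A gene of the marker lists is not reported here.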

Additional observations from a re-analysis of the deposited data

Results flagged for a closer look

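The log2 ratio of Hamp2 was -2.10 for females and 1.92 for males, so that the pools moved in opposite directions under AAI; the difference between the sexes was not tested, since each value rests on 1 pooled array per group and the doses differed.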

How the results depend on the processing

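The Hamp2 call kept its direction and stayed at 2-fold or more in females (-2.20 to -2.09 over 7 alternatives), in males (1.74 to 2.04) and between the corn oil pools (3.42 to 3.73). Hamp2 has 1 probe, above background on every array, so averaging probes and dropping the dim filter could not change it. Keeping replaced spots also left its values as they were. The count of 2 between the corn oil pools fell to 1, with Hamp2 alone, under normexp, without the trend correction, with probes averaged and at 3-fold, where Tfrc left it. In males the count of 1 became 2 under 75th percentile scaling, where Hamp reached 1.04. At 1.5-fold the counts were 2 in females and 3 in males. The count of 4 other iron genes called in males became 2, Id1 and Lcn2, under normexp, without the trend correction and at 3-fold, and 16 at 1.5-fold; in females 0 became 9 at 1.5-fold. Of 210 values of single genes 205 moved by less than the SD between probes and 5 by more, 4 of these with probes averaged, among them Slc40a1 in males at -0.18; none of the calls was reversed. The dim filter could not change any of these values, since every probe of the 10 genes was above background, and averaging could not change genes with 1 probe. The sign was the same under every alternative in 22 of 30 values, and Fth1, Ftl1, Tfr2, Tfrc and Trf each had a value near 0 that changed sign. Over all genes, the share of calls that were lower in females was 67.9%, and 51.1% under 75th percentile scaling. Normexp called 138 genes higher and 322 lower in females, against 459 and 971, and 514 and 633 in males, against 1058 and 1411. No replicate could be left out, and no paired analysis was possible because each group has 1 array. The cause of these changes was not tested.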
